A study of Mus musculus with 8 samples.

Results

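The genes described here encode the subunits of AP-1: Fos, Fosb, Fosl1 and Fosl2 of the FOS group, Jun, Junb and Jund of the JUN group, and Batf and Batf3 of the BATF group. They were taken by gene name from the deposited gene tables, which gave 9 of 38215 genes listed. They were compared between FoxP3+ regulatory T cells (Treg) of the bone marrow (BM-Treg) and of the spleen (SP-Treg), with 4 libraries per tissue. All cells came from naïve B6.FoxP3-GFP mice aged 12 weeks, given as C57Bl/6 in the sample labels, in which cells that express FoxP3 also make a green fluorescent protein and can be sorted by it. No mouse was treated or transplanted, and each library held RNA of more than 100000 sorted cells. By the labels, batch 1 held females and gave replicates 1 to 3 of BM-Treg, whereas batch 3 held males and gave replicate 4 of BM-Treg together with the whole of SP-Treg, so that batch and sex cannot be told apart from each other and largely follow the tissue. The methods of the study, in contrast to the labels of batch 3, give females as the default.

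AP-1 factors bind DNA as pairs joined through a leucine zipper. FOS proteins pair with JUN proteins and not with themselves, JUN proteins also pair with one another, and BATF proteins pair with JUN proteins in place of FOS. Fos, Fosb, Jun and Junb are immediate early genes, transcribed within minutes of a stimulus without new protein synthesis, and their RNAs are short-lived. In T cells FOS and JUN act with NFAT factors downstream of the T cell receptor, while BATF and JUN bind composite DNA sites together with IRF4 and are known for a role in effector Treg of nonlymphoid tissues.

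RNA amounts were read from expected counts, the read numbers that RSEM estimates for a gene, scaled so that the normalized libraries have the same size (CPM). A positive log2 fold change means more RNA in BM-Treg, and tests are edgeR's quasi-likelihood tests with Benjamini-Hochberg adjustment over all 13397 genes that passed the expression filter. Library totals ran from 12427136 to 21921252 counts. Of the 9 AP-1 genes, 7 passed the filter. Fosb, Junb and Jund were higher in BM-Treg and Batf was lower, at an adjusted p threshold of 0.05. These 4 of 7 stand beside 8.75% of all genes tested, with 3.72% higher and 5.02% lower in BM-Treg. Fos, at 2.70-fold higher in BM-Treg, missed the threshold, and Jun and Fosl2 differed by less than the spread between libraries. The median log2 fold change was 0.63 over the 7 AP-1 genes and -0.012 over all genes tested. The calls rest on few libraries. Their number was 0 without BM-Treg replicate 4, 1 without BM-Treg replicate 2, SP-Treg replicate 2 or SP-Treg replicate 4, 2 without BM-Treg replicate 1, BM-Treg replicate 3 or SP-Treg replicate 3, 3 without SP-Treg replicate 1, and 0 with batch as a term in the fit.

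The promoters of Fosb, Fos and Junb are shown first, since these genes carried the largest differences, together with that of Jun, the immediate early member with the smallest difference of those tested. Each line holds the 120 bases just before the transcript start from RefSeq (GRCm38.p6), read 5′ to 3′ in the direction of transcription. Capitals mark TGACG, the core of the cAMP response element bound by CREB and ATF factors, in Fos, Fosb and Junb, as well as the TATAAA box in Fos and the TGACATCA site, a variant of the AP-1 site, in Jun. The Fos sequence lies at chr12:85473770-85473889 on the plus strand, Fosb at chr7:19310046-19310165 on the minus strand, Junb at chr8:84978749-84978868 on the minus strand, and Jun at chr4:95052223-95052342 on the minus strand.
Fos: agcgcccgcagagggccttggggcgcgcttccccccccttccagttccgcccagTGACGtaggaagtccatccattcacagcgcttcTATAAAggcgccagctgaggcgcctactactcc
Fosb: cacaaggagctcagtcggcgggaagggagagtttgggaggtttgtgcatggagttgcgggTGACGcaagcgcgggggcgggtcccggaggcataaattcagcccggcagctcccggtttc
Junb: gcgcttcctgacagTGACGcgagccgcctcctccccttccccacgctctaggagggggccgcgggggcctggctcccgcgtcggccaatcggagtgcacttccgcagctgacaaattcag
Jun: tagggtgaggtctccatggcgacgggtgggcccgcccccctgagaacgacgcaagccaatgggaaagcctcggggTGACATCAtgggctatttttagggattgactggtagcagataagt

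The 250 bases before the start were searched on both strands in 8 members with a RefSeq window and in 32851 windows in all. TGACG was found in Fos, Fosb, Junb and Batf, which is 4 of 8 members, and in 17.8% of all windows. In Fos it lay 66 to 62 and again 129 to 125 bases before the start, in Fosb 60 to 56, in Junb 106 to 102 and in Batf 98 to 94. The Jun site TGACATCA, 45 to 38 bases before the start, has a counterpart in 2.93% of all windows. The full palindrome TGACGTCA, which contains TGACG, was in none of the 8 windows and in 1.55% of all. The AP-1 site TGACTCA was likewise in none, beside 4.46% of all. TATAAA was found only in Fos among the members (12.4% of all windows), and CCAAT in Jun and Junb (33.9% of all windows). The CArG box, bound by serum response factor, was in none of the 8 windows and in 1.47% of all. Bases farther than 250 before the start were not searched, so that a site there would have been missed. These are matches of letters in a short window, and binding of a factor was not measured.

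Immediate early RNAs are also known for AU-rich elements in the 3′ untranslated region, which shorten their life. In the GENCODE M21 annotation, ATTTA occurred 4 times in the 815 nt of Fos (median 1 in genes with untranslated regions of 0.8 to 1.25 times that length), 4 times in the 1233 nt of Jun (median 2) and 2 times in the 485 nt of Junb (median 1). Fosb held 1 in 2302 nt, below its median of 4, and Fosl2 held 8 in 4653 nt, the same as its median. Fosl1 and Jund held 1 each, and the 335 nt of Batf and the 310 nt of Batf3 held none, which are also their medians. The longer element TTATTTATT was found in Fos and in Fosl2, beside 4.49% and 20.9% of genes with untranslated regions of similar length. The stretch of Fos that holds it, bases 643 to 672 of the 3′ untranslated region, is shown with the overlapping ATTTA copies in capitals.
Fos stretch: tgtgttttcaATTTATTTAttaagatggat

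In the FOS group, Fosb and Fos RNA was higher in every BM-Treg library than in any SP-Treg library, Fosl2 overlapped between the tissues and Fosl1 was close to absent. Fosb (ENSMUSG00000003545, chr7:19302721-19310045) encodes FosB and, by splicing, the shorter ΔFosB, which lacks the activation domain at the carboxyl end. It stood at 80.4, 64.3, 101.9 and 148.2 CPM in BM-Treg replicates 1 to 4, and at 5.54, 9.42, 29.6 and 23.5 CPM in SP-Treg replicates 1 to 4. The lowest BM-Treg library was thus above the highest SP-Treg library, and SP-Treg replicates 1 and 2 lay lowest. Fosb was 5.81-fold higher in BM-Treg (log2 fold change 2.54 ± 0.58 SE, n = 4 per tissue, adjusted p = 0.0452 by edgeR's quasi-likelihood test). This was the log2 fold change in place 5 from the highest of 13397 genes. Against the SP-Treg libraries of its own batch, BM-Treg replicate 4 alone gave a log2 fold change of 3.41, which has no replicate on the BM side. Fosb passed the threshold without SP-Treg replicate 1 (adjusted p = 0.0398, edgeR) or replicate 3 (adjusted p = 0.0441), and missed it without any one of the other 6 libraries, at adjusted p of up to 0.102. Its log2 fold change was 2.26 to 2.94 over these 8 fits.

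Fos (ENSMUSG00000021250, chr12:85473890-85477273), the founding member of its group, was at 41.7, 50.4, 75.5 and 95.8 CPM in BM-Treg replicates 1 to 4. In SP-Treg replicates 1 to 4 it was at 11.9, 18.7, 32.6 and 34.2 CPM. The tissues did not overlap, and both the highest BM-Treg value and the largest distance from SP-Treg belonged to BM-Treg replicate 4. The log2 fold change was 1.43 ± 0.40 (SE, n = 4 per tissue), with an adjusted p of 0.0712 in edgeR's quasi-likelihood test. Within batch 3 it was 2.09, without a replicate in BM-Treg. DESeq2 gave 1.45 with an adjusted p of 0.0119, so that the side of the threshold on which Fos falls depended on the test.

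Fosl2 (chr5:32136472-32157831) encodes Fra-2, a FOS protein without the activation domain of c-Fos. Its values were 27.6, 41.7, 52.2 and 48.9 CPM in BM-Treg, against 69.9, 53.8, 43.1 and 43.3 CPM in SP-Treg replicates 1 to 4. The tissues overlapped, with the highest value in SP-Treg replicate 1 and the lowest in BM-Treg replicate 1 (log2 fold change -0.30 ± 0.21 SE, adjusted p = 0.424 by edgeR's quasi-likelihood test). Fosl1, which encodes Fra-1, had 2 to 10 counts per library (0.164 to 0.464 CPM) and did not pass the filter, so that no comparison between the tissues was made.

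**Figure D1:**
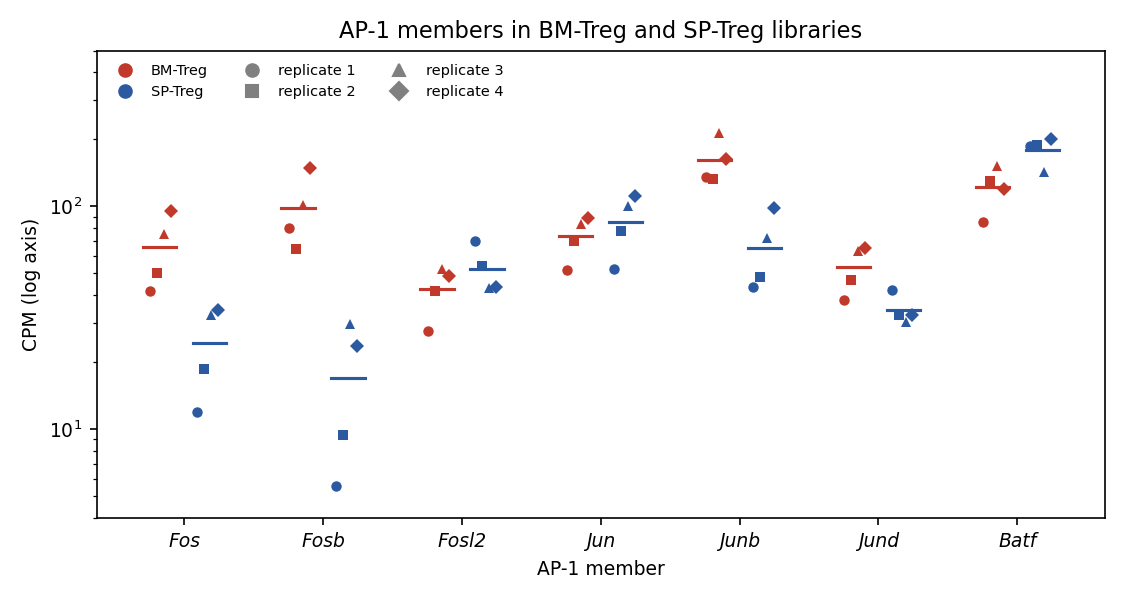
CPM on a log axis of the 7 AP-1 genes that passed the expression filter, with a point per library (red BM-Treg, blue SP-Treg, shape for the replicate number) and a line at the mean of the tissue. Fos, Fosb and Junb do not overlap between tissues, the lowest Fosb value in BM-Treg being 64.3 CPM and the highest in SP-Treg 29.6 CPM. Jun, Fosl2, Jund and Batf overlap.

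In the JUN group, Junb and Jund were higher in BM-Treg, and Jun, their partner in many AP-1 pairs, did not pass the test. Junb (chr8:84976909-84978748) encodes a JUN protein that activates transcription less strongly than c-Jun on many sites and is a known partner of BATF in T cells. It was at 136.1, 133.4, 214.5 and 163.1 CPM in BM-Treg replicates 1 to 4, and at 43.4, 48.1, 71.8 and 98.3 CPM in SP-Treg replicates 1 to 4. The tissues did not overlap, and SP-Treg replicates 1 and 2 were again the lowest. The difference was 2.47-fold (log2 fold change 1.31 ± 0.27 SE, n = 4 per tissue, adjusted p = 0.0216 by edgeR's quasi-likelihood test), and 1.39 on the log2 scale within batch 3, where BM-Treg has a single library. Junb missed the threshold without BM-Treg replicate 4 (adjusted p = 0.0516, edgeR) and without SP-Treg replicate 3 (adjusted p = 0.0551).

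Jund (chr8:70697739-70700616) encodes the JUN protein that is made in resting cells and changes least on stimulation. Its values were 37.9, 46.9, 63.3 and 65.0 CPM in BM-Treg, against 42.2, 32.6, 30.3 and 32.6 CPM in SP-Treg replicates 1 to 4. SP-Treg replicate 1 lay above BM-Treg replicate 1, and the tissues otherwise did not overlap. Jund was 1.54-fold higher in BM-Treg (log2 fold change 0.63 ± 0.17 SE, adjusted p = 0.0360 by edgeR's quasi-likelihood test) and 0.93 on the log2 scale within batch 3. It kept its side of the threshold without BM-Treg replicate 1 (adjusted p = 0.00956) or SP-Treg replicate 1 (adjusted p = 0.0249, both edgeR), and lost it without any one of the other 6, at adjusted p of up to 0.105. Jund overlaps the antisense gene Gm11175 over 543 bases, to which a mean of 110 counts was assigned, and since the strand setting of the counting is not given in the sources used here, reads of the pair cannot be told apart there.

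Jun (chr4:95049034-95052222), which encodes c-Jun, stood at 51.7, 70.1, 83.5 and 88.8 CPM in BM-Treg. In SP-Treg it stood at 52.4, 77.3, 100.1 and 111.7 CPM. Both tissues covered nearly the same range (log2 fold change -0.22 ± 0.24 SE, adjusted p = 0.644 by edgeR's quasi-likelihood test). The sign of this value turned to 0.057 with batch as a term and to 0.11 within batch 3. Jun overlaps the antisense gene BC042782 over 689 bases, to which a mean of 15.9 counts was assigned.

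Of the BATF group, Batf was lower in BM-Treg and Batf3 was not detected in most libraries. Batf (chr12:85686669-85709087), a factor without an activation domain of its own that lies 209 kb from Fos on chromosome 12, was at 85.2, 130.1, 152.0 and 119.9 CPM in BM-Treg replicates 1 to 4. SP-Treg replicates 1 to 4 had 186.5, 189.3, 142.4 and 201.8 CPM. BM-Treg replicate 3 lay above SP-Treg replicate 3, and the other BM-Treg libraries lay below every SP-Treg library. The log2 fold change was -0.56 ± 0.16 (SE, n = 4 per tissue, adjusted p = 0.0483 by edgeR's quasi-likelihood test), or 1.48-fold more in SP-Treg, and -0.57 within batch 3. Batf passed the threshold without BM-Treg replicate 3 (adjusted p = 0.0236, edgeR) or SP-Treg replicate 3 (adjusted p = 0.0227), and missed it without any one of the other 6 libraries, at adjusted p of up to 0.131. Batf3, known for its role in dendritic cells, had 0 to 3 counts per library, where 3 counts correspond to 0.132 to 0.251 CPM, and did not pass the filter.

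The separation of libraries can be read without the threshold. The BM-Treg and SP-Treg libraries did not overlap in Fos, Fosb and Junb, all with the higher values in BM-Treg, which is 3 of 7 members beside 7.58% of all genes tested in that direction and 16.2% in either. No member was separated in the other direction (8.57% of all genes). In each of these 3 genes an exact two-sided permutation test on log2 CPM gave p = 0.0286, the smallest value that 4 against 4 libraries allow, unadjusted. Any gene without overlap between the tissues gets this value, so that it restates the separation and adds no support. Bulk RNA cannot tell a higher amount per cell from more cells with the RNA.

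**Figure D2:**
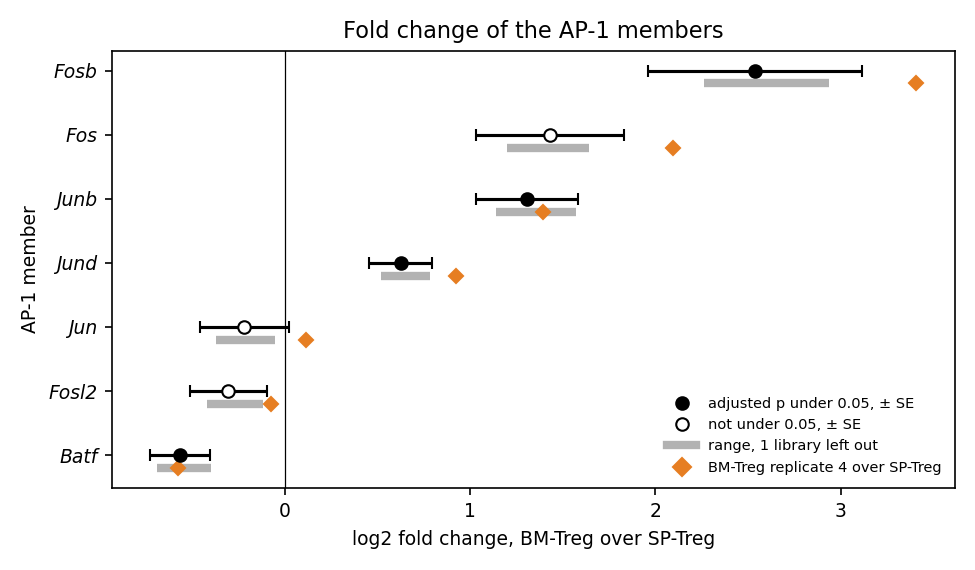
Log2 fold change of BM-Treg over SP-Treg for 7 AP-1 genes with its SE (black, filled where the adjusted p is under 0.05), the range when each library is left out in turn (grey bar), and the value of BM-Treg replicate 4 over the SP-Treg libraries of its batch (orange diamond, a single BM-Treg library). Fosb, Fos, Junb and Jund lie above 0 and Batf below 0 in each of these, while the diamond of Jun lies at 0.11.

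Levels of different genes were compared in FPKM, in which counts are divided by transcript length. Batf was the most abundant AP-1 RNA in both tissues, at a mean FPKM of 141.6 ± 33.8 for BM-Treg, against 200.7 ± 35.5 for SP-Treg (SD, n = 4). In BM-Treg the order below it was Junb (93.7 ± 22.2), Fos (33.9 ± 10.4), Fosb (27.2 ± 8.85), Jun (24.5 ± 4.95), Jund (19.4 ± 4.37) and Fosl2 (7.52 ± 1.87). The ranges of Batf and Junb overlapped, as did those of neighbours from Fos to Jund, whereas Junb lay above Fos and Jund above Fosl2 in every pair of libraries. Within each single BM-Treg library, however, Batf exceeded Junb and Jun exceeded Jund. In SP-Treg the order was Junb (35.9 ± 13.1), Jun (26.5 ± 7.21), Jund (12.1 ± 2.78), Fos (11.8 ± 4.73), Fosl2 (8.98 ± 2.80) and Fosb (4.41 ± 2.83). Here Batf stood apart from Junb, and Jun from Jund, and the ranges of the other neighbours overlapped. Within each single SP-Treg library Junb exceeded Jun. Fosl1 and Batf3 did not reach an FPKM of 1 in any library. Fosb therefore went from the middle of the order in BM-Treg to the last place among these 7 genes in SP-Treg.

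Summed over the 9 genes, FPKM ranged from 262 to 435 in BM-Treg and from 257 to 351 in SP-Treg, which overlapped. The share of each subunit in that sum differed between the tissues. Batf held 38.4%, 46.7%, 41.2% and 36.2% of the sum in BM-Treg replicates 1 to 4, and 73.5%, 71.7%, 58.3% and 63.1% in SP-Treg replicates 1 to 4. Every SP-Treg library was thus above every BM-Treg library. Junb held 23.9% to 30.6% in BM-Treg and 8.51% to 15.3% in SP-Treg. Fos held 8.47% to 12.5% against 2.18% to 5.98%, and Fosb 5.53% to 10.7% against 0.522% to 2.89%. Jund was also separated, at 5.29% to 6.16% against 3.20% to 5.21%, by a gap smaller than its range in either tissue. Jun (6.41% to 7.60% against 5.83% to 11.6%) and Fosl2 (1.89% to 2.28% against 2.06% to 4.18%) overlapped. By group, FOS genes made up 16.5% to 25.5% of the BM-Treg sum and 6.97% to 11.6% in SP-Treg, JUN genes 36.8% to 42.5% and 19.6% to 30.1%, and the BATF genes 36.2% to 46.7% and 58.3% to 73.5%. Shares add up to the whole, so that a higher share of one gene lowers the others, and they carry no test.

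**Figure D3:**
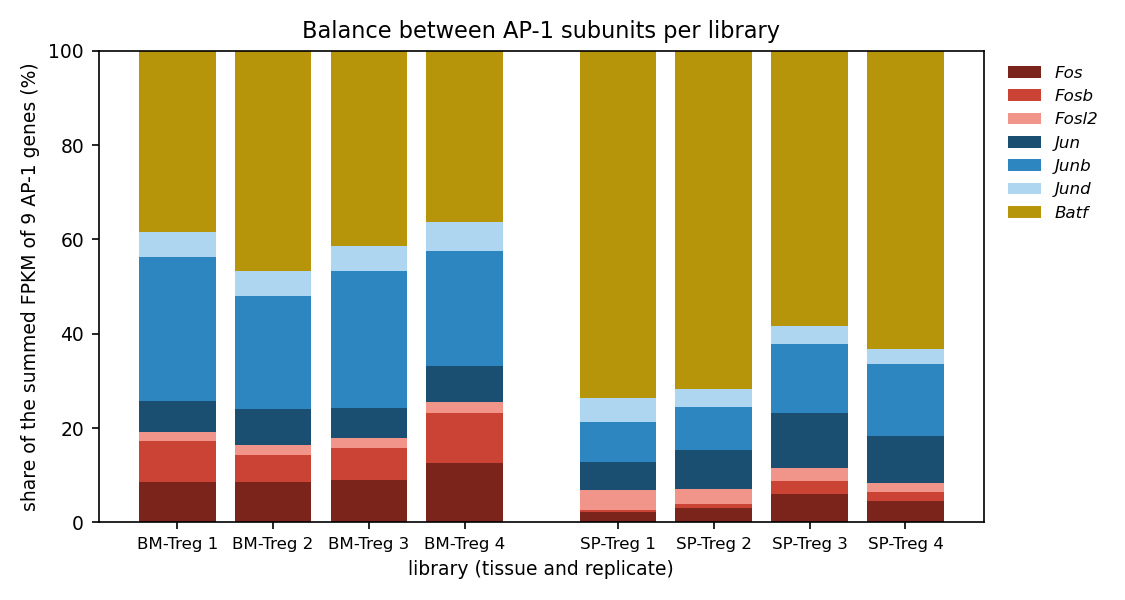
Share in percent of each AP-1 gene in the summed FPKM of the 9 genes, stacked per library, with FOS genes in red, JUN genes in blue and Batf in ochre. Fosl1 and Batf3 are too small to see, and Batf takes 36.2% to 46.7% in the BM-Treg libraries and 58.3% to 73.5% in the SP-Treg libraries.

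The balance was also read as ratios of FPKM within a library, with a pseudocount of 0.1, which do not depend on the scaling between libraries. The Fos to Jun ratio was 1.29, 1.14, 1.41 and 1.65 in BM-Treg replicates 1 to 4, and 0.377, 0.373, 0.519 and 0.470 in SP-Treg replicates 1 to 4. Fos RNA thus exceeded Jun RNA in all 4 BM-Treg libraries and was below it in all 4 SP-Treg libraries. For Fosb to Jun the ratios were 1.32, 0.729, 1.03 and 1.41 in BM-Treg and 0.0945, 0.107, 0.253 and 0.181 in SP-Treg. The Junb to Jun ratio was 4.63, 3.14, 4.52 and 3.23 in BM-Treg and 1.46, 1.10, 1.27 and 1.55 in SP-Treg, above 1 in all 8 libraries and without overlap between tissues. Ratios to Jun were separated with the higher values in BM-Treg for Fos, Fosb and Junb. Of all genes set against Jun, in CPM rather than FPKM, 3.52% were separated in that direction and 1.22% in the other. Jund to Jun overlapped, at 0.697 to 0.842 in BM-Treg and 0.327 to 0.895 in SP-Treg, the highest value being that of SP-Treg replicate 1.

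On the log2 scale the tissues differed by 1.66 in Fos to Jun, 2.89 in Fosb to Jun and 1.52 in Junb to Jun (means of 4 libraries, BM-Treg minus SP-Treg). With each library left out in turn these values stayed at 1.56 to 1.75, 2.68 to 3.15 and 1.43 to 1.61. Within batch 3, where BM-Treg has a single library, they were 1.94, 3.27 and 1.28. Within the FOS group, Fosb to Fos was 0.641 to 1.02 in BM-Treg and 0.250 to 0.487 in SP-Treg, again without overlap. Fosl2 to Fos was 0.181 to 0.267 in BM-Treg and 0.449 to 1.91 in SP-Treg, with SP-Treg replicates 1 and 2 above 1. Summed groups gave a FOS to JUN ratio of 0.438 to 0.667 in BM-Treg, against 0.301 to 0.386 for SP-Treg. The BATF to JUN ratio was 0.902 to 1.27 in BM-Treg and 1.94 to 3.75 in SP-Treg, and the BATF to FOS ratio was 1.42 to 2.82 and 5.01 to 10.5. None of the summed ratios overlapped between tissues. RNA ratios do not give the amounts of protein pairs, which were not measured here.

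**Figure D4:**
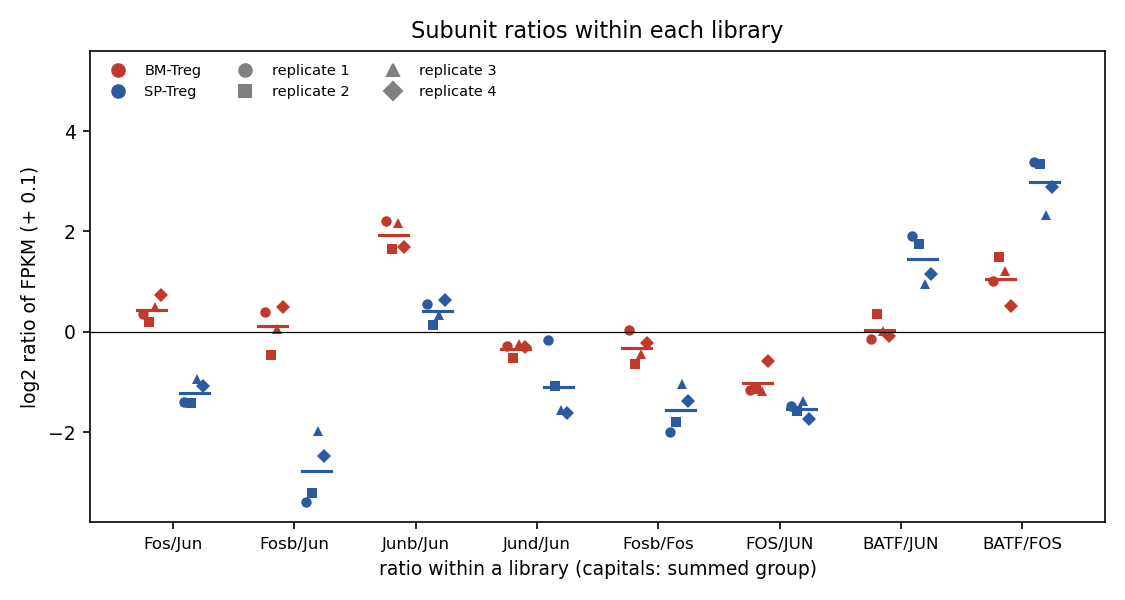
Log2 ratios of FPKM (pseudocount 0.1) within each library for pairs of AP-1 genes and, in capitals, for summed groups, with a point per library and a line at the mean of the tissue. Fos/Jun lies above 0 in the 4 BM-Treg libraries and below 0 in the 4 SP-Treg libraries, and Jund/Jun is the only ratio plotted in which the tissues overlap.

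A single transcript is listed for Fosb, so that full-length FosB and ΔFosB were not resolved. Of the counts of Fos, 95.1% to 100% went to 1 of the 4 listed transcripts in each library, and of those of Jun 91.0% to 100% to 1 of 2.

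The amplitude of the immediate early members moved with other values in the SP-Treg libraries. SP-Treg replicates 1 and 2 were the lowest in Fos, Fosb and Junb. Jun was also lower in them, at 52.4 and 77.3 CPM, than in SP-Treg replicates 3 and 4, at 100.1 and 111.7 CPM. SP-Treg replicates 1 and 2 had the highest summed CPM of 11 heat shock genes, chaperones made under protein stress, at 11041 and 10449. SP-Treg replicates 3 and 4 had 6325 and 6195, and BM-Treg replicates 1 to 4 had 3106, 3726, 3913 and 4923. Within BM-Treg, Fos rose in that same order, from 41.7 CPM in replicate 1 to 95.8 CPM in replicate 4. Jun rose in it too, from 51.7 CPM in replicate 1 to 88.8 CPM in replicate 4. Fosb was also highest in BM-Treg replicate 4 (148.2 CPM), and Junb in replicate 3 (214.5 CPM). The inverse order was thus not seen within BM-Treg. Heat shock genes were lower in BM-Treg in 6 of 11 cases and none was higher, beside 5.02% and 3.72% of all genes tested. Among the 6 were Hsp90aa1 (log2 fold change -1.50, adjusted p = 0.00484), Hspd1 (-1.44, adjusted p = 0.0109) and Hspe1 (-1.18, adjusted p = 0.000185, all edgeR). The median log2 fold change over the list was -1.14. With SP-Treg replicates 1 and 2 left out, an alternative chosen after the data had been seen, Fosb (log2 fold change 1.89, adjusted p = 0.0272) and Junb (0.93, adjusted p = 0.0266, both edgeR) passed the threshold. Fos (0.98, adjusted p = 0.151), Jund (0.76, adjusted p = 0.0527) and Batf (-0.50, adjusted p = 0.230, all edgeR) did not. Neither did Jun, at -0.53 (adjusted p = 0.122) beside -0.22 with all libraries, nor Fosl2 (-0.021, adjusted p = 0.972, both edgeR). The part of handling or stress in these differences was not tested beyond this.

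Markers of other cells were low beside the Treg genes. The 6 Treg identity genes (Foxp3, Il2ra, Ctla4, Ikzf2, Cd3e and Cd4) summed to 7221 to 8574 CPM in BM-Treg, against 7927 to 8746 CPM in the SP-Treg libraries, and none of the 6 passed the test. The 7 macrophage and monocyte markers, cells in which FOS and JUN genes are also expressed, summed to 13.7 to 19.8 CPM in BM-Treg, against 7.41 to 28.7 CPM in the SP-Treg libraries. The 8 neutrophil markers summed to 1.32 to 10.5 CPM and 0.216 to 18.4 CPM, and both lists overlapped between the tissues. The 7 erythroid markers were at 14.4 to 33.8 CPM against 1.87 to 479 CPM in SP-Treg, lowest in SP-Treg replicate 1, and the 5 B cell markers at 10.8 to 14.0 CPM and 6.33 to 95.4 CPM, highest in SP-Treg replicate 2. The 5 markers of plasmacytoid dendritic cells summed to 48.0 to 59.7 CPM and 37.3 to 67.4 CPM, and the 4 plasma cell markers found, nearly all Prdm1, which effector Treg also express, to 290 to 417 CPM and 294 to 431 CPM. Some single markers were near 0 in every library, with at most 0.822 CPM of Siglech (plasmacytoid dendritic cells), 0.418 CPM of Camp (neutrophils) and 0.335 CPM of C1qa (macrophages). Others of the same lists were higher, at up to 41.8 CPM of Ccr9, 8.38 CPM of Ngp and 18.9 CPM of Lyz2. Pacsin1, of the plasmacytoid dendritic cell list, was the only marker that passed the test and was lower in BM-Treg (log2 fold change -0.55, adjusted p = 0.0415 by edgeR).

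The genes around AP-1 were read as lists. Median log2 fold changes were close to the -0.012 of all genes for other bZIP factors (0.029), composite site partners (0.068) and MAP kinases with related kinases (-0.026). The same held for promoter factors (0.061) and JUN turnover genes (0.013). The 14 other bZIP factors tested pair or compete with AP-1 subunits. Of these, 1 was higher in BM-Treg and none lower, beside 3.72% and 5.02% of all genes tested. It was Atf4, the factor of the integrated stress response, with a mean of 100.3 CPM (SD 10.5) against 69.8 CPM (SD 13.4) in SP-Treg (log2 fold change 0.52, adjusted p = 0.0261 by edgeR's quasi-likelihood test), which missed the threshold without BM-Treg replicates 3 or 4 or SP-Treg replicates 1 or 2, at adjusted p of up to 0.0771. Jdp2, a repressor that pairs with JUN proteins, was separated between tissues at a low level (4.33 to 5.22 CPM against 2.85 to 3.67 CPM) with an adjusted p of 0.136. Bach2, which competes for AP-1 sites, had a log2 fold change of -0.75 and overlapped. Among 9 factors that bind beside AP-1 at composite sites, 1 was lower and none higher in BM-Treg. This was Irf4, the partner of BATF, with 136.4 CPM (SD 12.1) against 300.7 CPM (SD 62.3) in SP-Treg (log2 fold change -1.14, adjusted p = 0.000392 by edgeR). Batf and Irf4 were thus both lower in BM-Treg, but Irf4 passed the threshold in each of the 17 alternatives with a test and Batf in 5. The study itself reported Irf4 as downregulated in BM-Treg from its RNA sequencing, so that this is not independent evidence.

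Upstream of AP-1, MAP kinases phosphorylate the factors that drive Fos and Jun. A list of 20 kinases held MAP kinases and kinases upstream of them, together with Rps6ka1 and Rps6ka3, RSK kinases that act downstream of ERK. Of these 20, 1 was higher in BM-Treg and none lower, beside 3.72% and 5.02% of all genes tested. It was Rps6ka1, so that no MAP kinase or kinase upstream of one passed the test. Rps6ka1, which encodes RSK1, stood at 153.0 CPM (SD 9.45) against 93.7 CPM (SD 8.66) in SP-Treg (log2 fold change 0.71, adjusted p = 0.000967 by edgeR). Of 13 factors that act on the Fos and Jun promoters, 3 were higher and 2 lower. Mef2d (log2 fold change 0.55), Mkl1 (0.54), a coactivator of serum response factor, and Crtc3 (0.41), a coactivator of CREB, were higher in BM-Treg, at adjusted p of 0.00407, 0.00282 and 0.0338 (edgeR). Crem (-0.78, adjusted p = 0.0107), a CREB relative with repressor forms, and Elk4 (-0.44, adjusted p = 0.0104), a partner of serum response factor, were lower. Crtc3 lost its call without BM-Treg replicates 1 or 2 or SP-Treg replicates 2 or 4, at adjusted p of up to 0.111. None of the 8 ubiquitin ligase and signalosome genes that act on JUN proteins passed the test.

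Of 20 other immediate early genes tested, 2 were higher in BM-Treg like Fosb and Junb, and 5 were lower. These counts stand beside 3.72% and 5.02% of all genes tested, and the median log2 fold change over the list was 0.089. Dusp1, a phosphatase that switches off MAP kinases, stood at 582.9 CPM (SD 171.1) against 223.7 CPM (SD 76.3) in SP-Treg (log2 fold change 1.38, adjusted p = 0.0236 by edgeR), and its call was lost without BM-Treg replicates 3 or 4 or SP-Treg replicates 2 or 4, at adjusted p of up to 0.0656. Klf6 was the other (0.55). Egr2, a zinc finger factor induced by the T cell receptor, went the other way, with 13.6 CPM (SD 5.03) against 72.9 CPM (SD 17.6) in SP-Treg (log2 fold change -2.41, adjusted p = 0.00131 by edgeR). Egr1 (-1.02), Egr3 (-0.86), Myc (-1.04) and Ier5 (-0.61) were lower too. Of these, Egr1 and Egr2 passed with any one library left out, whereas Myc, Egr3 and Ier5 each missed the threshold in 6 or 7 of 8 such fits, at adjusted p of up to 0.119, 0.0819 and 0.130. Within batch 3, where BM-Treg has a single library, Egr1 stood at -0.58 and Egr2 at -2.79. Fosb and Junb on the one hand and Egr1, Egr2 and Egr3 on the other therefore differed in opposite directions between the tissues.

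Of 12 genes of the tissue Treg programme that BATF is known to promote, 3 were higher and 2 lower in BM-Treg. These counts stand beside 3.72% and 5.02% of all genes tested. Batf itself was lower, and the list median was -0.29 on the log2 scale. Klrg1 (log2 fold change 1.07, adjusted p = 0.00105), Il1rl1 (1.04, adjusted p = 0.00244), which encodes the IL-33 receptor ST2, and Gata3 (0.43, adjusted p = 0.00906) were higher (edgeR). Tigit (-0.68, adjusted p = 0.0121) and Icos (-0.49, adjusted p = 0.0439) were lower, Icos keeping its call only without SP-Treg replicate 3 or 4 among fits with a library left out, and missing it otherwise at adjusted p of up to 0.144. Pparg was separated at a low level, with a log2 fold change of 1.16 and an adjusted p of 0.0677. Klrg1, Il1rl1, Tigit and Pparg are among the genes or proteins that the study itself named for BM-Treg, so that this list is not independent evidence. For TIGIT the direction differed. The study reported a larger fraction of TIGIT-positive Treg in bone marrow by flow cytometry, whereas Tigit RNA was lower in BM-Treg here.

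**Figure D5:**
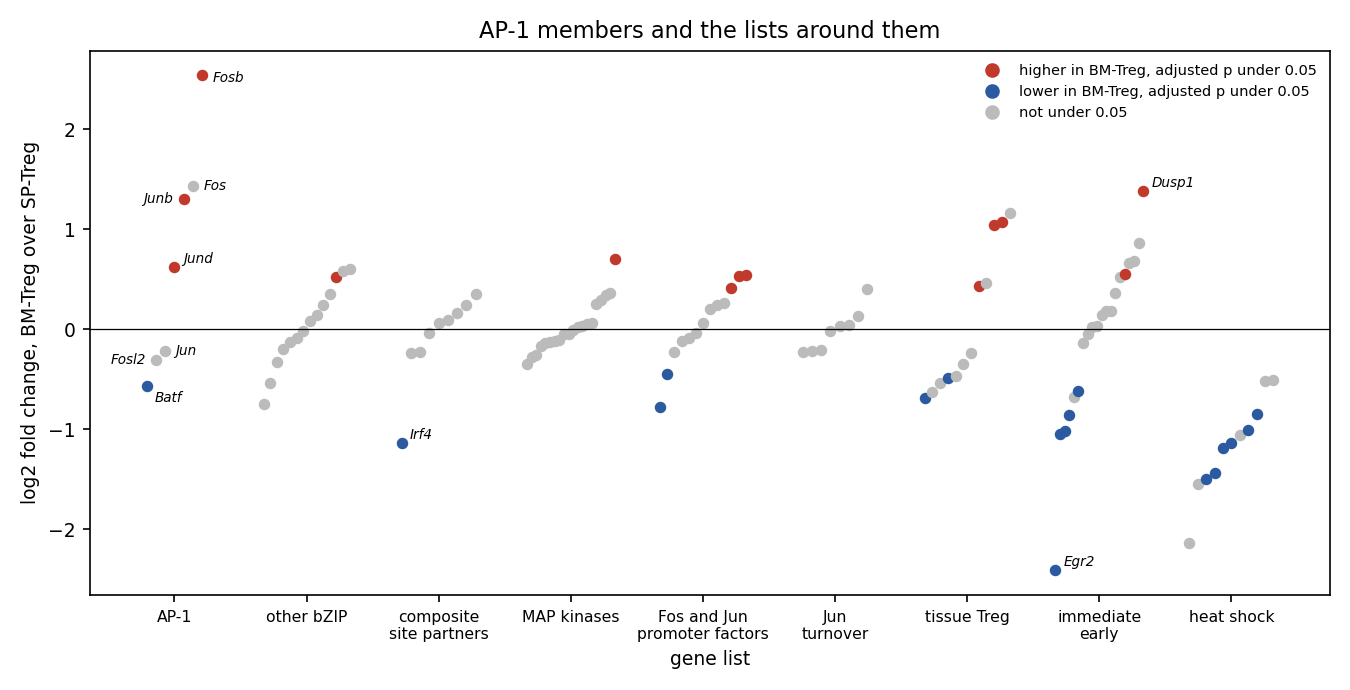
Log2 fold change of BM-Treg over SP-Treg for each gene tested in the AP-1 family and in 8 lists around it, ordered by value within a list, in red or blue where the adjusted p is under 0.05 (edgeR). Fosb lies highest at 2.54 and Egr2 lowest at -2.41. The MAP kinase list, which also holds RSK kinases, and the JUN turnover genes run from -0.35 to 0.71. Only Rps6ka1, an RSK kinase, is coloured among them, at 0.71.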

How the data were processed

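RNA was extracted from sorted FoxP3+ cells, 15 ng was amplified with NuGEN's single primer isothermal (SPIA) system, and single-end reads of 80 nt were made. The submitters' processing notes name cutadapt 1.9, STAR 2.5.2a, RSEM 1.2.30 and the GRCm38 build. The authors deposited expected counts per gene and transcript, without normalization between libraries, and FPKM values, which divide counts by transcript length and depth. The strand setting is not given in the sources used here. Molecular identifiers were not used, and a floor of 3 counts covers only the error of counting. The methods give 4 biological replicates per condition, and 0 columns of single libraries were left unmatched. Libraries of a tissue differed beyond sampling noise (chi-square per degree of freedom 14.6 to 88.5).

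Expected counts were rounded, filtered with edgeR's default filter, scaled by TMM and compared by edgeR's quasi-likelihood test (robust, no covariate), with Benjamini-Hochberg adjustment over 13397 genes and a threshold of 0.05. The script was tested on simulated data. CPM used TMM library sizes, log2 CPM a prior count of 2, and FPKM ratios a pseudocount of 0.1. The software was edgeR 4.0.16, DESeq2 1.42.0 and limma 3.58.1 under R 4.3.3. Same-numbered libraries of the tissues did not deviate together (r -0.11, 0.06, -0.18 and 0.04), and no label pairs them.

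The members and gene lists were chosen with earlier results of these data known. Of 155 list entries 154 matched a gene. The genes named outside the family were, per list, up to 6 that passed the test by absolute log2 fold change, then genes without overlap between tissues, and for each member the 3 genes with the highest Pearson correlation, some of which are not reported here. Klf6, Bach2 and single marker genes were named after their values had been seen, as were the Fosb to Jun ratio and the TGACATCA search. Results were recomputed with DESeq2, with its size factors in edgeR, with limma-voom, and with limma-trend on log2(FPKM + 1) or log2(FPKM + 0.1). The filter was dropped or set to 10 counts in every library. Batch, then replicate number, entered the model, batch 3 was read by itself, single libraries were omitted in turn, and, after the data had been seen, so was the SP-Treg pair highest in heat shock genes.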

Additional observations from a re-analysis of the deposited data

Results flagged for a closer look

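Dixon's criterion for a library far from the other 3 of its tissue was applied to 56 sets of 4 values (CPM, shares and ratios of the members), where chance gives about 1 in 20. It was met by 3 sets, all through BM-Treg replicate 4, the BM-Treg library of batch 3. The log2 ratio of summed FOS to summed JUN FPKM was -0.58 in that library and -1.19 to -1.15 in the other BM-Treg libraries. Its share of Fos in the summed FPKM was 12.5%, beside 8.47% to 9.04%. Its share of Jund was 6.16%, beside 5.29% to 5.39%. In all 3 measures this library lay farther from the SP-Treg libraries than the rest of BM-Treg did, and batch, sex and the library itself cannot be told apart here.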

How the results depend on the processing

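The directions of Fos, Fosb, Fosl2, Junb, Jund and Batf were the same in all 17 alternatives with a test, and that of Jun in 16 of 17, its log2 fold change being 0.057 with the batch term. Over all genes, 1172 were called, 765 with log2(FPKM + 1) (482 higher and 283 lower in BM-Treg, beside 499 and 673), 728 with log2(FPKM + 0.1) (454 and 274), 1231 with at least 10 counts in every library (632 and 599), 258 with the batch term and 690 to 1048 with a library left out. Of the members, 4 were called, 1 with no low count filter, 0 with the batch term, 2 with the SP-Treg pair highest in heat shock genes left out and 0 to 3 with a library left out. Fos was called by DESeq2 (1.45), log2(FPKM + 1) (1.48), log2(FPKM + 0.1) (1.56) and the replicate block (1.48, adjusted p = 0.000206), and stood at 2.09 in batch 3 alone. With no low count filter, which tests more genes, Fosb (2.56), Junb (1.33) and Batf (-0.54) lost the call. With the batch term, where only BM-Treg replicate 4 shares a batch with SP-Treg, so did Fosb (3.13), Junb (1.32), Jund (0.92) and Batf (-0.59). Fosb was at 3.41 in batch 3 alone. Jund was not called by limma-voom (0.59), log2(FPKM + 1) (0.63) or log2(FPKM + 0.1) (0.67), nor Batf with DESeq2's size factors (-0.55), log2(FPKM + 1) (-0.51) or log2(FPKM + 0.1) (-0.52). Without the SP-Treg pair, Jund was at 0.76 and Batf at -0.50. Apart from the effect of fewer samples or of more genes tested, the cause of these changes was not tested. With a library left out, log2 fold changes ran from 1.20 to 1.64 for Fos, 2.26 to 2.94 for Fosb, 1.14 to 1.57 for Junb, 0.52 to 0.79 for Jund and -0.69 to -0.40 for Batf. The replicate block called 948 genes and 3 members, Fos, Fosb and Junb, with Jund (0.61, adjusted p = 0.0979) and Batf (-0.58, adjusted p = 0.0894) not called, and since the numbers do not pair the libraries this is no measure of a weaker effect.

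With 1 BM-Treg library in the batch of SP-Treg, tissue cannot be told apart from batch and sex beyond that library. Outside the family, the calls of Irf4, Mkl1, Klrg1, Il1rl1, Egr2 and Hspe1 held with the batch term. Those of Rps6ka1, Atf4, Mef2d, Crtc3, Crem, Elk4, Dusp1, Egr1, Egr3, Myc, Ier5, Tigit, Icos, Gata3, Hsp90aa1 and Hspd1 were lost. Fosl1 and Batf3, at 10 counts or fewer per library, were not compared at this depth.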

Other observations

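The genes whose pattern over the 8 libraries was most like that of a member, by Pearson's r of log2 CPM among 11525 genes, are given as a description, since r over 8 libraries of 2 tissues and 2 batches largely follows the difference between groups. For Fos they were Rgs2, a regulator of G protein signalling (r = 0.99), Atf4 (0.98) and Mgat1 (0.98). For Fosb they were Fam100a (0.99), Wdr66 (0.98) and Tmem60 (0.98), and for Junb they included Trib1 (0.98) and Mgat1 (0.98). Among these, Rgs2 (log2 fold change 1.44, adjusted p = 0.0187) and Trib1 (0.73, adjusted p = 0.00290) were higher in BM-Treg by edgeR's quasi-likelihood test. For Jund they were Zfp493, Wbp2 and Fam176b (each 0.97), and for Batf Sdf4 (0.98), Inpp5a (0.98) and Gp49a (0.97). For Fosl2 they included Pja1 (0.97) and Gtpbp1 (0.94), and for Jun Fdxacb1 (0.97) and Samm50 (0.96). No AP-1 member was among the 3 genes most like another.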
